A study of Mus musculus with 10 samples.

Results

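The 9 genes described here are textbook targets of YAP and of the serum response: Ccn1, Ccn2, Ankrd1, Thbs1 and Amotl2 for YAP, and Srf, Fos, Vcl and Fhl2 for serum response factor. They were chosen by name, with earlier results of these data known, as were the wider gene lists below. Counts of members and list genes set beside shares of all genes are therefore descriptions and not tests. Each of the 9 was found once among the 30677 genes of the count table. Of the 9, 8 passed the filter on low counts, as did 20027 genes of the whole table, and Ankrd1 did not.

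The cells were TNGA cells, a mouse embryonic stem cell line in which 1 of the 2 Nanog alleles carries a GFP reporter. All cultures were kept in serum and LIF and contained DMSO at 0.1% of the volume. The control group received DMSO alone for 48 h, and the treated group received MB-3, an inhibitor of the histone acetyltransferase Kat2a (Gcn5), at 100 µM for 48 h. Poly(A) RNA was sequenced from 3 libraries per group, marked A, B and C, with 46863700 to 51137896 counts per DMSO library and 42270312 to 49334434 counts per MB-3 library. Acetylation of histone H3 at lysine 9 (H3K9ac) was mapped by ChIP-seq, with 1 peak list per treatment. The labels describe a triplicate treatment of a single line. P-values with treatment alone measure the spread between these cultures. Those with the replicate letter as a block measure the spread left once differences between letters are removed. Neither measures a spread between lines.

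YAP and its relative TAZ are coactivators that carry no DNA-binding domain and reach their targets through the TEAD proteins. The kinases of the Hippo pathway phosphorylate them and hold them out of the nucleus, and cell spreading, tension and serum lipids release this block. Serum response factor binds the CArG box and works with the MRTF proteins, which leave monomeric actin as filaments form, or with the Elk proteins, which are phosphorylated by ERK kinases. The first route controls genes of the contractile cytoskeleton, the second the immediate early genes.

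Promoter sequence was searched for the recognition motifs of these factors. RefSeq promoters (GRCm38.p6, 250 bases before to 50 bases after the start) were held for 7 of the 9 genes, and Ccn2 and Thbs1 were not matched. The TEAD motif GGAATG, read on both strands, was found in the promoters of Ccn1, Amotl2, Ankrd1 and Vcl, and in 14.7% of all 32851 promoters. The CArG box was found in the promoters of Srf, Vcl and Fhl2, and in 1.63% of all promoters. The AP-1 motif TGACTCA, which occurs in 5.2% of all promoters, was in none of these 7 genes, and the Fos promoter held none of the 3 motifs in this window. No TEAD match overlapped a CArG match. Vcl alone held both. The stretches below show how the matches lie in 2 YAP targets that were lower in every letter, Ccn1 and Amotl2, and in the 3 serum response genes with a CArG box, with the motif in capitals and the bases of the coding strand written 5′ to 3′. The first 2 hold a TEAD motif in reverse orientation, that of Srf holds 2 CArG boxes, and those of Vcl and Fhl2 hold 1 CArG box each. Fhl2 has 2 promoters in the table, each with a CArG box, and the one shown is that of the downstream start:

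Ccn1, chr3:145650058-145650113, minus strand: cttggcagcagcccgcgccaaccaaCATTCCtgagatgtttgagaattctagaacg

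Amotl2, chr9:102717714-102717769, plus strand: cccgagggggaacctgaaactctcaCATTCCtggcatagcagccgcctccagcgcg

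Srf, chr17:46556190-46556269, minus strand: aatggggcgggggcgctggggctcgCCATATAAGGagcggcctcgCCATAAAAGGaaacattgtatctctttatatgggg

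Vcl, chr14:20929148-20929205, plus strand: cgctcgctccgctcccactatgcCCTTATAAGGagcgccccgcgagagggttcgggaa

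Fhl2, chr1:43163962-43164017, minus strand: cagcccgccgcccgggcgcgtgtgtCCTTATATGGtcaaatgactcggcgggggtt

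The YAP targets Ccn1, Thbs1 and Amotl2 and the immediate early gene Fos were lower in MB-3 than in DMSO within each of the 3 replicate letters, whereas Ccn2, Srf and Vcl stood at nearly the same level in both groups. The size of the decrease was close to 2-fold for Thbs1 and Ccn1 and smaller for Amotl2. Without DMSO replicate C and with treatment alone, which leaves MB-3 replicate C without its partner, the log2 fold change was -0.53 for Thbs1 in place of -0.97, -0.30 for Ccn1 in place of -0.91 and -0.12 for Amotl2 in place of -0.33. With the block and without both C libraries it was -0.88 for Thbs1 in place of -0.94, -0.59 for Ccn1 in place of -0.82 and -0.21 for Amotl2 in place of -0.31, and all 3 still passed. With treatment as the only term, 0 of the 8 tested members passed an adjusted p of 0.05 (edgeR quasi-likelihood test, Benjamini-Hochberg adjustment over all genes), and 41 of 20027 genes did (0.205%). Of the 8, 4 had an unadjusted p under 0.05, as had 2182 of all genes, and DESeq2 and limma-voom also called 0 members. Leaving out DMSO replicate B raised the calls to 520 genes and 4 members, and leaving out any other library gave no member. With the replicate letter as a block, 1425 genes passed (7.12%), and Ccn1, Thbs1, Amotl2 and Fos were among the 781 that passed as lower in MB-3 (3.90% of all genes tested), while none was among the 644 that passed as higher (3.22%). Of the 8 members, 4 were lower in all 3 letters, against 20.3% of all genes. None had groups that did not overlap, against 7.37% of all genes with every MB-3 library below every DMSO library. In RNA from a whole culture, fewer cells that express a gene cannot be told apart from less RNA of that gene per cell.

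**Figure D1:**
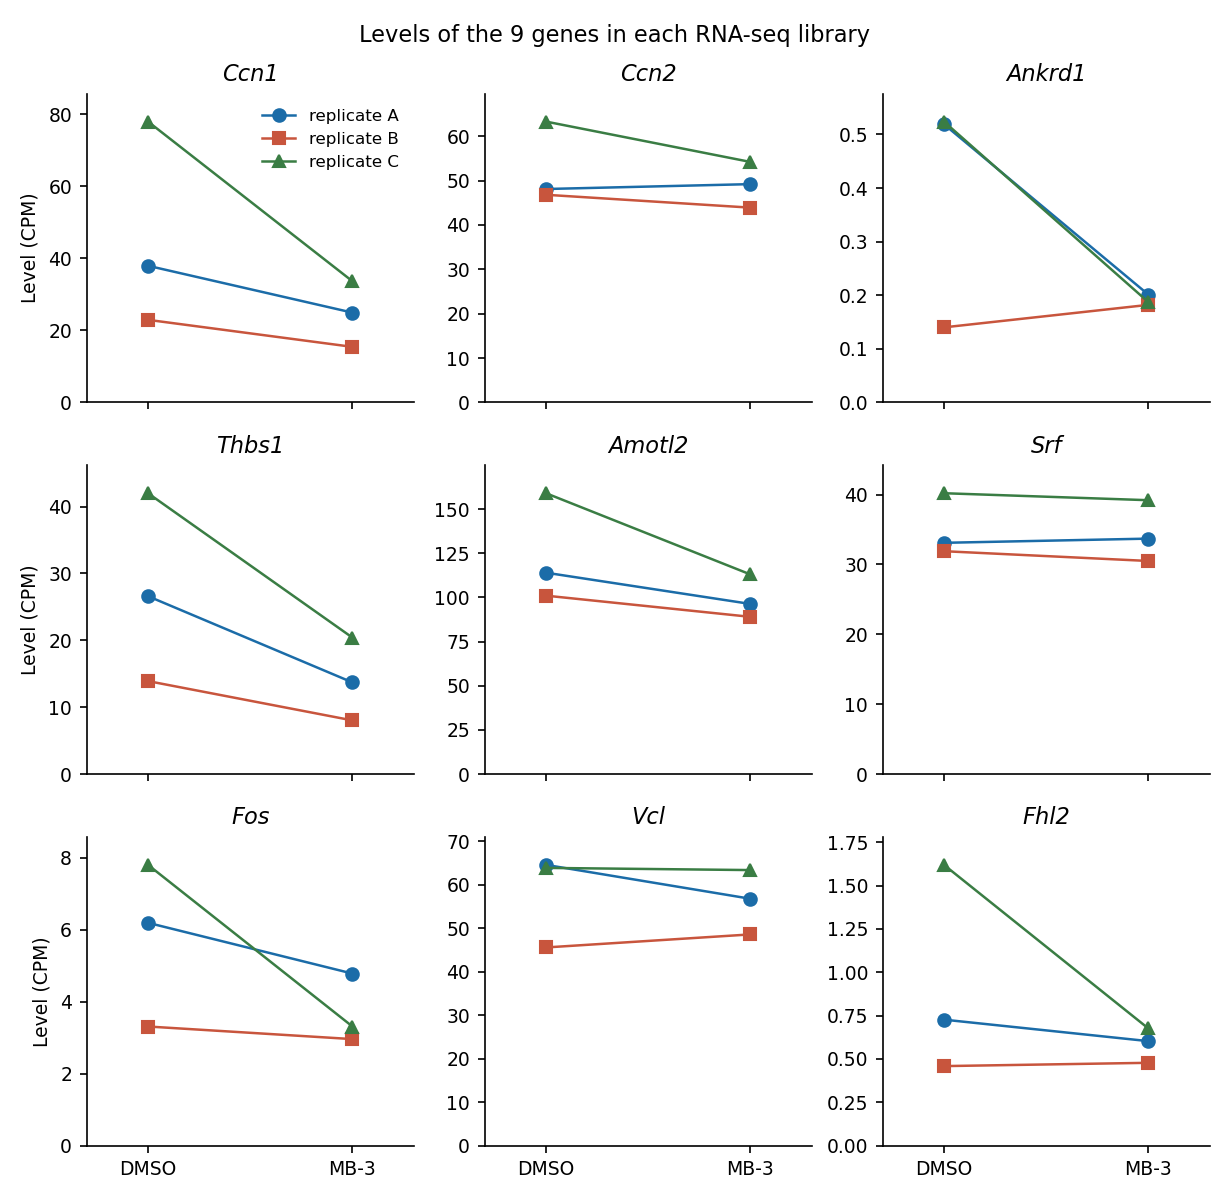
Level in CPM (counts scaled to library size, y axes from 0, each on its own scale) of the 9 genes in the DMSO and MB-3 libraries, with 1 line joining the DMSO and MB-3 libraries of each replicate letter. The lines of Ccn1, Thbs1, Amotl2 and Fos all fall, those of Srf stay nearly level, and replicate B is the lowest of each group in every panel.

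Ccn1 (ENSMUSG00000028195, chr3:145646976-145649981, minus strand) encodes CYR61, a secreted matrix protein that is among the most used readouts of YAP. Its level was 37.9, 22.9 and 77.9 counts per 1000000 counts of the library (CPM) in DMSO replicates A, B and C, and 24.9, 15.4 and 33.6 CPM in the MB-3 replicates of the same letters. Each MB-3 library was below its DMSO partner, at 0.66, 0.67 and 0.43 of its level, but MB-3 replicates A and C exceeded DMSO replicate B. The spread within DMSO, 3.4-fold from lowest to highest, was wider than the difference between the groups. The log2 fold change was -0.91 ± 0.34 (SE, edgeR, adjusted p = 0.343) with treatment alone and -0.82 ± 0.08 (adjusted p = 6.6e-09) with the block.

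Thbs1 (ENSMUSG00000040152, chr2:118111876-118127133, plus strand) encodes thrombospondin 1, a matrix glycoprotein that activates TGF-beta. Its level was 26.6, 13.9 and 42 CPM in DMSO replicates A, B and C and 13.7, 8.02 and 20.4 CPM in MB-3. The fall was the most even among the members, with MB-3 at 0.52, 0.58 and 0.49 of DMSO, and the groups overlapped only where MB-3 replicate C exceeded DMSO replicate B. The log2 fold change was -0.97 ± 0.33 (adjusted p = 0.291, edgeR) without the block and -0.94 ± 0.07 (adjusted p = 7.4e-12) with it. Gm29233 lies on the opposite strand, and since the use of strand in counting is not stated, its reads cannot be told apart from those of Thbs1.

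Amotl2 (ENSMUSG00000032531, chr9:102716672-102733418, plus strand) encodes an angiomotin that is both a YAP target and a protein that retains YAP at cell junctions. It had the highest CPM of the 9 genes, with 114, 101 and 159 CPM in DMSO and 96.3, 89 and 113 CPM in MB-3. MB-3 stood at 0.85, 0.88 and 0.71 of DMSO, so the decrease was largest in letter C, and MB-3 replicate C exceeded DMSO replicate B. The log2 fold change was -0.33 ± 0.13 (adjusted p = 0.383, edgeR) without the block and -0.31 ± 0.05 (adjusted p = 9.6e-05) with it.

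Ccn2 (ENSMUSG00000019997, chr10:24595442-24598683, plus strand) encodes CTGF, the closest relative of CYR61 among these genes and the second common readout of YAP. It was at 48.1, 46.8 and 63.3 CPM in DMSO and at 49.2, 43.9 and 54.2 CPM in MB-3. Letter A was slightly higher in MB-3 and letters B and C slightly lower, and the groups overlapped, with MB-3 replicates A and C within the range of DMSO. The log2 fold change was -0.10 ± 0.11 (adjusted p = 0.770, edgeR), with a 95% interval of -0.33 to 0.13, and -0.09 ± 0.05 (adjusted p = 0.340) with the block, with an interval of -0.20 to 0.02. The blocked intervals of Ccn1 (-0.98 to -0.66) and Ccn2 did not meet. That of Ccn1 was narrower than the spread between its letters, however, and the difference between the 2 genes was not itself tested. Gm15270 overlaps Ccn2 on the opposite strand.

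Ankrd1 (ENSMUSG00000024803, chr19:36111961-36120099, minus strand) encodes an ankyrin repeat protein of muscle and nucleus that responds strongly to YAP in many cell types. In these cells it was near the limit of detection, with 25, 7 and 25 counts in DMSO and 10, 8 and 8 in MB-3. These counts correspond to 0.519, 0.14 and 0.524 CPM in DMSO and to 0.201, 0.182 and 0.187 CPM in MB-3. DMSO replicates A and C stood above the other 4 libraries, DMSO replicate B stood below all of them, and no test was made.

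Srf (ENSMUSG00000015605, chr17:46548329-46556175, minus strand) encodes serum response factor itself. Its level was 33.1, 31.9 and 40.2 CPM in DMSO and 33.7, 30.5 and 39.2 CPM in MB-3, so that each MB-3 library lay close to the DMSO library of its letter. The log2 fold change was -0.03 ± 0.10 (adjusted p = 0.948, edgeR), and the blocked 95% interval ran from -0.14 to 0.08.

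Fos (ENSMUSG00000021250, chr12:85473890-85477273, plus strand) encodes a subunit of the transcription factor AP-1 and is transcribed within minutes of serum stimulation. Its level was 6.19, 3.31 and 7.8 CPM in DMSO and 4.78, 2.96 and 3.31 CPM in MB-3. The decrease was uneven, with MB-3 at 0.77, 0.89 and 0.42 of DMSO, letter C carried most of it, and DMSO replicate B was as low as MB-3 replicate C. The log2 fold change was -0.64 ± 0.26 (adjusted p = 0.377, edgeR) without the block and -0.61 ± 0.14 (adjusted p = 0.0049) with it. Fos did not pass with the block in DESeq2 (adjusted p = 0.437), nor with the block in edgeR once both C libraries were left out (log2 fold change -0.28, adjusted p = 0.287).

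Vcl (ENSMUSG00000021823, chr14:20929398-21033676, plus strand) encodes vinculin, which couples integrins to actin at focal adhesions. It stood at 64.6, 45.6 and 63.9 CPM in DMSO and 56.8, 48.6 and 63.4 CPM in MB-3, lower in letter A, higher in letter B and level in letter C. The log2 fold change was -0.04 ± 0.12 (adjusted p = 0.924, edgeR) and the blocked interval ran from -0.15 to 0.07. Ap3m1 overlaps Vcl on the opposite strand.

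Fhl2 (ENSMUSG00000008136, chr1:43123074-43196984, minus strand) encodes a LIM-domain adaptor that is induced through MRTF and SRF. It was weakly expressed, at 0.727, 0.459 and 1.62 CPM in DMSO and 0.603, 0.478 and 0.676 CPM in MB-3. DMSO replicate C alone lay above 1 CPM, and the other 5 libraries lay close together. The log2 fold change of -0.66 ± 0.40 (adjusted p = 0.571, edgeR) and the blocked value of -0.58 ± 0.29 (adjusted p = 0.256) did not pass. They rested on DMSO replicate C: without it the log2 fold change was -0.01, and with the block and without both C libraries it was -0.13.

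**Figure D2:**
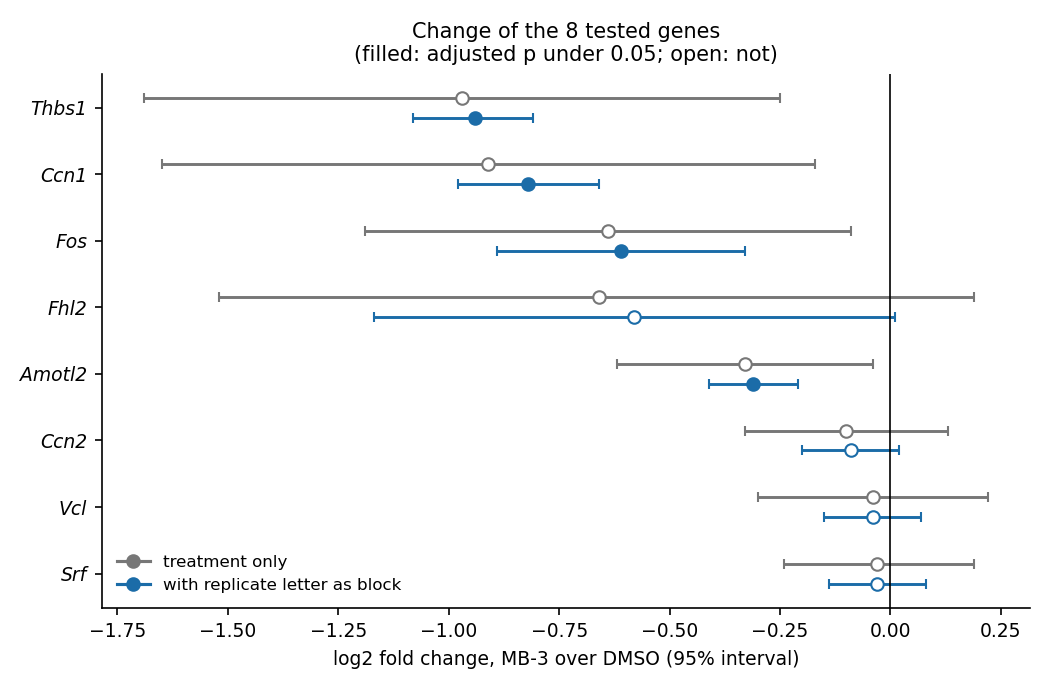
Log2 fold change of MB-3 over DMSO (x axis) with its 95% interval for the 8 tested genes (y axis), with treatment alone in grey and with the replicate letter as a block in blue. Filled points passed an adjusted p of 0.05 over all genes, which only the blocked values of Thbs1, Ccn1, Fos and Amotl2 did, and the block narrowed the intervals while it left the estimates nearly in place.

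The replicate letters ordered the members in the same way in both groups. Replicate B was the lowest library of its group, in DMSO and in MB-3, for all 8 tested members. Replicate C was also the highest of both groups for 6 of the 8, against 6.06% of all genes tested with this order in both groups. The exceptions were Fos, which was highest in replicate A within MB-3, and Vcl, which was highest in replicate A within DMSO. Within DMSO, the ratio of the highest to the lowest library was 3.52 for Fhl2, 3.4 for Ccn1, 3.03 for Thbs1 and 2.36 for Fos, but 1.57 for Amotl2, 1.42 for Vcl, 1.35 for Ccn2 and 1.26 for Srf. Within MB-3 the same ratio was smaller for 7 of the 8 members and was 2.54 at most, for Thbs1. For Srf it was 1.29. The decrease was largest in letter C for 6 of the 8 members. The shares of all genes with replicate B lowest in both groups, or with the largest decrease in letter C, were not counted.

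Per kilobase of exon, the order of the mean levels in DMSO was Ccn1, Amotl2, Ccn2, Srf, Vcl, Thbs1, Fos, Fhl2 and Ankrd1. The first 3 had 22.9 ± 14.1, 19.9 ± 4.85 and 18.4 ± 3.21 CPM per kb (SD, n = 3) and did not differ beyond their spread. Srf followed with 12.1 ± 1.56, within 1 SD of the mean of Ccn1, and Vcl with 7.08 ± 1.31 CPM per kb. Thbs1 had 4.53 ± 2.32 and Fos 2.45 ± 0.968 CPM per kb, with Thbs1 overlapping Vcl and Fos within 1 SD of each, while Fos stood above Fhl2 at 0.492 ± 0.319. In MB-3, the mean of Ccn1, 12.2 ± 4.5 CPM per kb, lay behind Ccn2 at 17.2 ± 1.8 and Amotl2 at 15.8 ± 1.94. Ccn1 overlapped both within 1 SD of each and was level with Srf at 11.9 ± 1.54. The remaining genes kept their places.

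The wider set of YAP and TEAD targets moved in 1 direction only among the genes that passed. The list held 22 genes, of which 18 were tested, and 15 of the tested genes were not among the 9 members. With treatment alone 0 of the 18 passed in edgeR, 6 had an unadjusted p under 0.05, and DESeq2 called 1, Myof. With the block 7 of 18 fell and 0 rose, beside 3.90% and 3.22% of all genes tested. Without the members 5 of 15 fell. The median log2 fold change of the 18 genes was -0.19 with the block, beside -0.001 for all genes tested. Nt5e, the ectonucleotidase CD73, was at 3.95, 1.42 and 7.26 CPM in DMSO and 1.67, 1.05 and 1.89 CPM in MB-3 (blocked log2 fold change -1.35 ± 0.18, adjusted p = 4.7e-06). Igfbp3, a binding protein of insulin-like growth factors, was at 61.8, 36 and 105 CPM in DMSO and 29, 22.2 and 43.1 CPM in MB-3 (-1.04 ± 0.07, adjusted p = 1.4e-12). Tgfb2, a TGF-beta ligand with Gm29491 on its opposite strand, changed by -0.88 ± 0.16 (adjusted p = 4.8e-04). Each of the 3 was lower in MB-3 in all 3 letters, with replicate C highest and replicate B lowest in both groups, as for Ccn1 and Thbs1. Myof and Ptpn14 were the other list genes outside the members that fell. Ptpn14, which has Gm26574 on its opposite strand, was lower in 2 of 3 letters only. In edgeR with the block, the 10 tested genes outside the members that did not pass ranged from the kinase Lats2 (-0.31) to the exchange factor Dock5 (0.09).

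In the pathway that controls YAP, the genes that passed with the block were lower in MB-3, and Yap1 was not among them. Of 21 Hippo pathway genes, all tested, 0 passed with treatment alone in edgeR and DESeq2 (4 had an unadjusted p under 0.05 in edgeR). With the block 5 fell, beside 3.90% of all genes tested, and 16 did not pass. Of these 16, Amotl1 (-0.31 to -0.05), Sav1 (-0.27 to -0.03), Lats2 (-0.60 to -0.01) and Mob1b (0.03 to 0.30) had unadjusted 95% intervals with the block that left out 0. Yap1 was at 142, 144 and 138 CPM in DMSO and 152, 145 and 147 CPM in MB-3, with a blocked log2 fold change of 0.07 ± 0.04 (adjusted p = 0.430). Wwtr1, which encodes TAZ, was at 36.1, 32.1 and 41 CPM in DMSO and 29.3, 27.5 and 32.5 CPM in MB-3, and fell by 0.29 ± 0.05 on the log2 scale with the block (adjusted p = 6.8e-04). Tead1, the most abundant of the 4 TEAD genes, had a blocked log2 fold change of 0.03, and Tead2, Tead3 and Tead4 did not pass either. Vgll4, a protein that competes with YAP for TEAD, changed by -0.61 ± 0.10 (adjusted p = 1.3e-04, from 6.96, 5.82 and 9.94 to 4.3, 4.39 and 6.09 CPM). Amot, the angiomotin that gives the family its name, changed by -0.49 ± 0.08 (adjusted p = 1.1e-04). Amotl2 and Ptpn14, the latter lower in 2 of 3 letters, were the other 2. Of the 5 genes that fell, Wwtr1 is a coactivator and the other 4 encode proteins known to hold back YAP or TEAD. Transcripts do not report phosphorylation or the place of YAP in the cell, which were not measured.

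The partners of SRF did not pass in either fit. Among Srf and 6 cofactors, 6 genes were tested and 0 passed with or without the block in edgeR (0 at an unadjusted p under 0.05 without it), with a median log2 fold change of 0.00. Mrtfa was at 18.9, 18.3 and 18.8 CPM in DMSO and 19.5, 19.9 and 21.4 CPM in MB-3, and Mrtfb had a log2 fold change of 0.15 ± 0.07 (adjusted p = 0.173 with the block). Myocd, the muscle member of the family, was at or below 0.1 CPM in each library.

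Tagln, Tgfb1i1 and Cnn1 had the largest decreases that passed among the cytoskeletal targets of MRTF and SRF. Of 27 genes 26 were tested. With treatment alone 0 passed in edgeR, 13 had an unadjusted p under 0.05, and DESeq2 called 2, Tagln2 and Tgfb1i1. In edgeR 14 fell with the block, none of them among the members, while 0 rose, beside 3.90% and 3.22% of all genes tested. The median log2 fold change was -0.28 with the block. Tagln, which encodes the actin-binding protein SM22, was at 37.2, 19.3 and 79.9 CPM in DMSO and 14.5, 9.24 and 27.7 CPM in MB-3 (blocked log2 fold change -1.34 ± 0.07, adjusted p = 3.5e-15). Its exons overlap Gm48529 and Pcsk7 on the opposite strand. Tgfb1i1, the focal adhesion protein Hic-5, changed by -1.10 ± 0.17 (adjusted p = 4.7e-05), and its groups did not overlap, with 1.89 CPM as the lowest DMSO and 1.56 CPM as the highest MB-3 library. Cnn1, a calponin that binds actin, changed by -0.76 ± 0.12 (adjusted p = 4.6e-05), from 5.3, 3.57 and 11.4 CPM to 3.5, 2.57 and 5.36 CPM in letters A, B and C. Cald1, caldesmon, followed with -0.75 ± 0.06 (adjusted p = 8.2e-10). Acta2, Cnn2, Myl9, Tpm1 and Tpm4, which encode actin, calponin 2, myosin light chain and tropomyosins, also fell with the block, as did Tagln2, Fhl1, Zyx, Pdlim7 and Itga5. Tpm2, another tropomyosin (-0.07, adjusted p = 0.584), did not pass, and the smooth muscle actin Actg2 was too low to be tested. The cytoplasmic actins did not pass: Actb had a blocked log2 fold change of 0.00 at 1046 to 1208 CPM, and Actg1 had -0.07. Flna (-0.03), Myh9 (-0.03) and Tln1 (-0.04), which encode filamin A, non-muscle myosin and talin, had values close to that of Vcl.

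Of the 23 immediate early genes 20 were tested. With the block 7 fell and 0 rose, beside 3.90% and 3.22% of all genes tested. The median log2 fold change was -0.18 with the block. With treatment alone 0 passed in edgeR, 6 had an unadjusted p under 0.05, and DESeq2 called 1, Jun. Atf3, a stress-responsive repressor, was at 3.68, 1.79 and 6.46 CPM in DMSO and 1.79, 1.12 and 2.5 CPM in MB-3 (-1.09 ± 0.15, adjusted p = 8.9e-06). Fosl2 (-0.85 ± 0.15, adjusted p = 3.7e-04) and Jun (-0.64 ± 0.10, adjusted p = 8.7e-05), which encode AP-1 subunits like Fos, fell in each letter. Junos, an antisense gene, overlaps Jun. The classical serum-induced gene Egr1 changed by -0.32 ± 0.08 (adjusted p = 0.0081) but was lower in 2 of 3 letters only. The 13 tested genes that did not pass had blocked values from -0.33 for Ier5 to 0.39 for Fosl1, which also encodes an AP-1 subunit. They included Fosb, Junb, Ier2, Nr4a1, Dusp1 and Zfp36. Of the 20 tested, 7 with Ier5 among them were lower in all 3 letters, against 20.3% of all genes. Another 3, Fosl1, Dusp6 and Mcl1, were higher in all 3 letters, a share that was not counted over all genes.

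**Figure D3:**
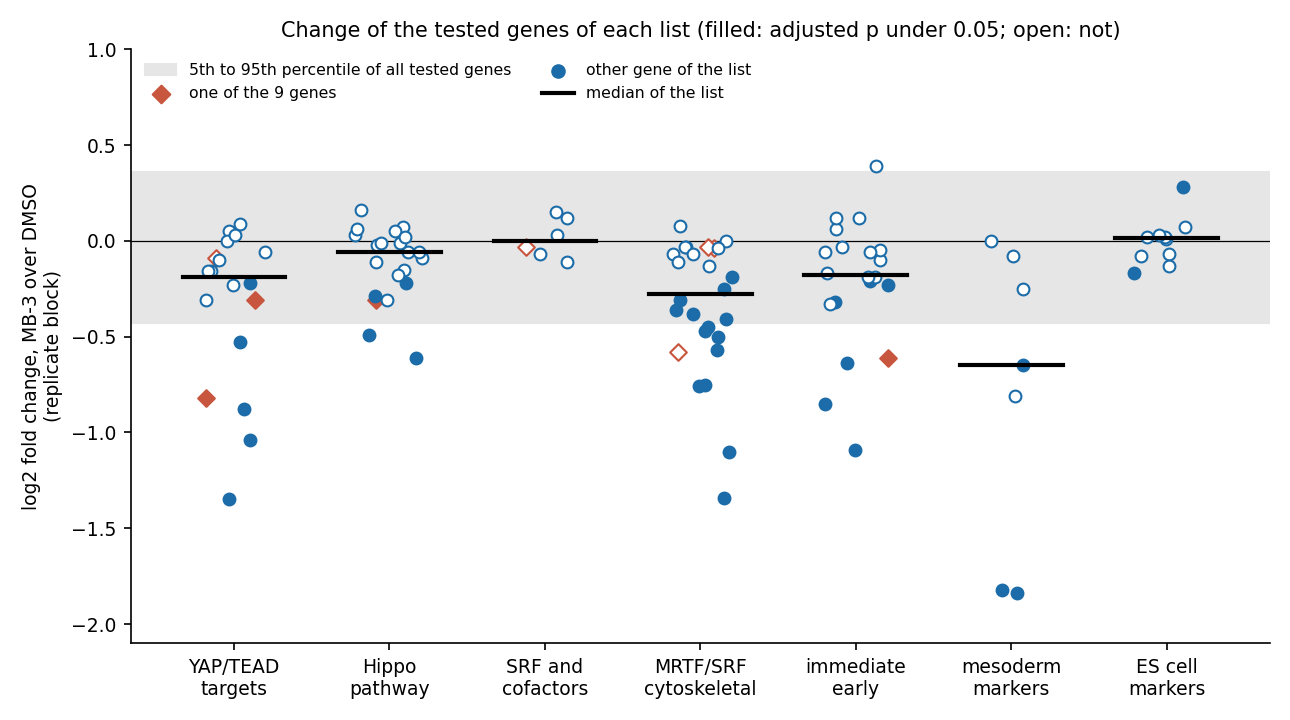
Log2 fold change of MB-3 over DMSO with the replicate block (y axis) for each tested gene of 5 pathway lists, the mesoderm markers and the embryonic stem (ES) cell markers (x axis). Filled points passed an adjusted p of 0.05, diamonds are genes among the 9, black bars are list medians, and the grey band runs from the 5th to the 95th percentile of all tested genes (-0.43 to 0.36), so that Nt5e, Tagln and Atf3 are seen as the lowest points of their lists while the SRF cofactors lie inside the band.

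The libraries carried the markers of ES cells at high level. The 10 ES cell markers summed to 5340, 5581 and 5006 CPM in DMSO and 5063, 5363 and 5163 CPM in MB-3, and Dppa5a was the most abundant, with a mean of 1450 CPM in the DMSO and 1323 CPM in the MB-3 libraries. The 8 mesoderm markers summed to 26.9, 17.1 and 49.7 CPM in DMSO and 11.9, 9.97 and 15.6 CPM in MB-3. This sum was lower in MB-3 in each letter and had replicate C highest and replicate B lowest in both groups, as had Ccn1 and Thbs1, but single markers differed. Of the 7 tested, 3 fell with the block, beside 3.90% of all genes tested. Of these 7 markers, 4 were lower in all 3 letters and 2 had that order of letters in both groups. Brachyury (T), the most abundant, which gave most of the sum in DMSO, was at 16.5, 9.05 and 32.5 CPM in DMSO and 4.68, 3.58 and 7.44 CPM in MB-3 (-1.82 ± 0.10 with the block, adjusted p = 1.5e-14, and adjusted p = 0.061 without). Mixl1 (-1.84 ± 0.24, adjusted p = 2.2e-06) and Eomes (-0.65 ± 0.11, adjusted p = 2.4e-04) also fell with the block, while Hand1 (-0.81), Gsc (-0.25), Tbx6 (-0.08) and Kdr (0.00) did not pass, and Mesp1, Gsc and Kdr were under 1 CPM in each library. No marker of the list was at 0 in all libraries. The part of cells in an early mesoderm state in the results for the 9 genes was not tested.

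The 10 fibroblast markers summed to 11.7, 9.85 and 13.2 CPM in DMSO and 8.22, 8.29 and 8.37 CPM in MB-3. Col1a1 (-1.33 ± 0.28, adjusted p = 0.0023) and Col1a2 (-1.28 ± 0.21, adjusted p = 1.2e-04) fell with the block, from at most 1.24 and 2.2 CPM. Of the 7 tested, 4 were lower in all 3 letters with groups that did not overlap, beside 7.37% of all genes without overlap. Pdgfrb (-0.48, adjusted p = 0.102) and Twist1 (-0.44, adjusted p = 0.141) were among them but did not pass with the block in edgeR. Thy1 was the most abundant with a mean of 3.38 CPM in the DMSO and 3.12 CPM in the MB-3 libraries, and Col3a1, Postn, Dcn, Lum and Prrx1 were under 1 CPM in every library, none of them at 0 in all. The part of such cells in the results was not tested. The 7 extraembryonic endoderm markers in the table summed to 9.91, 8.71 and 12.8 CPM in DMSO and 8.18, 8.81 and 9.98 CPM in MB-3, with Dab2 the most abundant at 7.89 and 6.93 CPM and 0 of the 5 tested genes past the threshold. The 7 trophoblast markers in the table summed to 72.7, 68.5 and 70.4 CPM in DMSO and 77.3, 75 and 78.7 CPM in MB-3, most of it Tfap2c at 63.4 and 71.2 CPM, and Elf5 was under 1 CPM.

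The genes outside the 9 whose pattern over the 6 libraries was most like that of a member were found by the root mean square difference of centred log2(CPM + 0.1) among 15952 tested genes with a mean of at least 1 CPM. Cnn1, the calponin of smooth muscle, lay nearest to Ccn1, with a difference of 0.102 on the log2 scale. Ghr, the growth hormone receptor, lay nearest to Thbs1 (0.078), Endod1 to Amotl2 (0.035) and St14 to Ccn2 (0.024). Sema7a was nearest to Fos (0.107) and Klhdc7a to Fhl2 (0.136), Cyp2j13 to Srf (0.032) and K230010J24Rik to Vcl (0.027). Among the members themselves the closest pairs were Ccn2 and Srf (0.056), Amotl2 and Ccn2 (0.127), Srf and Vcl (0.133) and Ccn1 and Thbs1 (0.142). Ccn1 and Ccn2, the pair of related CCN proteins, were farther apart, at 0.571, although both had replicate C highest and replicate B lowest in both groups. The measure depends on the size of the variation, so genes that vary little lie close together. The SD over the 6 libraries on this scale was 0.725 for Ccn1, 0.171 for Ccn2 and 0.149 for Srf. With 6 libraries and so many candidates these are descriptions of likeness only.

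H3K9ac marks active promoters, and Kat2a is one of the enzymes that place it. In the study's annotation of the part of the DMSO peak list read here, a single member, Ccn2, has a peak assigned to it. Gene assignments were read for 1999 of the 11724 DMSO peaks, so the lack of an assigned peak for the other members is not evidence that they had none. The Ccn2 peak lies at chr10:24315397-24315915 (mm9), is 519 bp wide and is the only DMSO peak within 5000 bp. The peak overlapped 0 peaks of the MB-3 list, whose nearest peak on chromosome 10 began 237791 bp away. The share of all DMSO peaks that overlapped no MB-3 peak was not counted. The peak lists carry no heights and no replicates, so the presence of a peak in one list and not in the other was not tested, and the whole MB-3 list is shorter, with 4673 peaks against 11724. Ccn2 RNA, as given above, differed between the groups by less than the spread between libraries.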

How the data were processed

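The members and gene lists were chosen with earlier results of these data known. The authors mapped the trimmed reads of the RNA libraries (single-end) to mm10 by Bowtie and summed them over exons by GenomicAlignments, and the deposited table holds the raw counts of each Ensembl gene. Versions of the mapping, counting and peak-calling tools, the annotation release and strand use are not given in the sources used here. The ChIP duplicates were mapped to mm9 by BWA and pooled before peaks were called against input by MACS2, and the deposited lists hold positions only, without a score. Positions were not converted between builds, and starts were raised by 1. All 6 count columns were used, and 0 rows named no gene. Symbols, positions and exon lengths came from GENCODE (GRCm38), matched for 30540 of 30677 identifiers.

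Genes were kept by filterByExpr, normalized by TMM and tested with glmQLFit and glmQLFTest in edgeR 4.0.16 (R 4.3.3), adjusted by Benjamini-Hochberg over all 20027 genes, threshold 0.05. The standard error is the log2 fold change over the square root of the F statistic. CPM are counts scaled by the TMM library size, so 1 CPM is 42.9 to 50.2 reads. DESeq2 1.42.0, limma-voom (limma 3.58.1), other normalizations and filters, the replicate block and left-out libraries were alternatives. The fits were tested on simulated data.

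Whether letters pair libraries was checked by correlating deviations from the group mean over 20027 genes. Same-lettered libraries had r of 0.115 (A), 0.287 (B) and 0.232 (C). Other pairs were below 0, but deviations from a group mean sum to 0, so these negative values are no separate support for pairing. All 3 exceeded 0.1, A narrowly, so the letters were taken to pair the libraries from the data, since the labels do not say what a letter shares. No 2 libraries of the same group were alike within sampling noise.

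Named genes were the 9 members, up to 3 genes per list with the largest blocked changes past the threshold, the most abundant gene of each list of other cell types and the gene nearest in pattern to each member. Other genes named from the lists were chosen after their values were seen. Afp, Ttr and Prl3d1 were not analysed here.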

Additional observations from a re-analysis of the deposited data

How the results depend on the processing

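With treatment as the only term, no member passed under RLE size factors, upper quartile factors, no filter on low counts, CPM of at least 1 in 3 libraries, the robust option of edgeR, DESeq2 or limma-voom. The number of genes called, 41 (21 lower and 20 higher in MB-3), was 25 with upper quartile factors (17 lower and 8 higher), 194 with no filter (144 lower and 50 higher), 24 with the CPM filter, 66 with the robust option, 192 in DESeq2 and 18 in limma-voom. Of the YAP and TEAD targets 3 were called with no filter (Igfbp3, Nt5e and Myof), and 1, Myof, with the robust option and in DESeq2. Of the cytoskeletal targets 4 were called with no filter (Tagln, Tagln2, Tgfb1i1 and Tpm4) and 2 in DESeq2 (Tagln2 and Tgfb1i1), and of the immediate early genes 1 in DESeq2 (Jun).

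Leaving out 1 library in turn gave 0 to 520 genes and 0 to 4 members, with 520 (392 lower and 128 higher) and 4 (Ccn1, Thbs1, Amotl2 and Fos) without DMSO replicate B and no member in the other 5 fits. The lists then had 0 to 7 (YAP and TEAD), 0 to 6 (Hippo), 0 to 10 (cytoskeletal) and 0 to 4 (immediate early) calls, each highest number without DMSO replicate B. Fewer samples enter these fits.

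With the replicate block, edgeR called 1425 genes and DESeq2 627, with 4 and 3 members, 7 and 5 YAP and TEAD targets, 5 and 4 Hippo genes, 14 and 12 cytoskeletal targets and 7 and 4 immediate early genes. With the replicate block and without the A, B or C libraries, edgeR called 939, 912 and 1037 genes and 4, 4 and 3 members, in each case with Ccn1, Thbs1 and Amotl2 among them. The lists had 6, 7 and 6 (YAP and TEAD), 4, 6 and 4 (Hippo), 13, 14 and 11 (cytoskeletal) and 8, 5 and 4 (immediate early) calls. The block changed no call of Ccn2, Srf, Vcl or Fhl2.

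When 1 library was left out with treatment as the only term, the log2 fold change ran from -1.23 to -0.30 for Ccn1, -1.33 to -0.53 for Thbs1, -0.46 to -0.12 for Amotl2 and -0.92 to -0.36 for Fos, and it was -0.01 for Fhl2 without DMSO replicate C. With the replicate block and without the C libraries, Thbs1 was -0.88, Ccn1 -0.59, Fos -0.28, Amotl2 -0.21 and Fhl2 -0.13.

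The small estimates of 3 members changed sign. Ccn2 ranged from -0.18 to 0.05, Srf from -0.13 to 0.08 and Vcl from -0.19 to 0.05 when 1 library was left out, and Vcl was 0.04 with the replicate block and without the A libraries; the cause was not tested. The DMSO peak assigned to Ccn2 shared 0 MB-3 peaks also when 50% cover was asked or a gap of 1000 bp was allowed. Depth limits Ankrd1 and Fhl2, which had at most 25 and 77 counts per library.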

Other observations

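Outside the pathway lists, 2 of the 10 ES cell markers passed with the replicate block, in opposite directions (edgeR). Utf1, a chromatin-associated factor of pluripotent cells, was at 176, 240 and 184 CPM in DMSO replicates A, B and C and 239, 232 and 251 CPM in MB-3 (log2 fold change 0.28 ± 0.06, adjusted p = 0.0023). It was higher in MB-3 in letters A and C but not in B. Tfcp2l1, a factor of naive pluripotency, was at 283, 237 and 251 CPM in DMSO and 235, 216 and 234 CPM in MB-3 (-0.17 ± 0.04, adjusted p = 0.014), lower in all 3 letters. Pou5f1, Sox2, Nanog, Esrrb, Zfp42, Klf2, Dppa5a and Tdgf1 did not pass. Among the trophoblast markers Tfap2c, which ES cells also express, was higher with the block (0.17 ± 0.05, adjusted p = 0.032), at 66.6, 62.5 and 61.2 CPM in DMSO and 71.3, 70.4 and 71.8 CPM in MB-3, with no overlap between the groups.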
